A study of Bos taurus with 4 samples.

Results

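Bovine intramuscular preadipocytes, the precursors of the fat cells that lie within skeletal muscle, were compared after 6 days with 9-cis retinoic acid (9cRA) and after 6 days without a retinoid (day 6 control). The 2 groups hold 3 of the 12 arrays of the series each, chosen by their labels alone. Confluent cultures had been moved to a medium with insulin, the glucocorticoid dexamethasone, octanoate, acetic acid, fetal bovine serum and antibiotics. All groups after day 0 received this medium, so every 9cRA difference described here lies on top of that mixture. The 9cRA cultures also received 1 µM of the compound. The other groups of the series are cells before this medium (day 0) and cells given 1 µM all-trans retinoic acid (ATRA) for the same 6 days, and both serve below as points of reference. By its title, the series concerns the action of vitamin A on gene expression while these cells become fat cells. The breed, age and sex of the donor animals are not given in the labels used here. The labels list 1 sample a group with 3 array files (n = 3 arrays a group throughout) and do not say that these come from separate cultures. The p-values thus rest on array-to-array spread alone, which may be technical.

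Retinoic acid acts through nuclear receptors that sit on DNA as pairs, a retinoic acid receptor (RARA, RARB, RARG) with a retinoid X receptor (RXRA, RXRB, RXRG). ATRA binds the first kind, whereas 9cRA is known as a ligand of both. The retinoid X receptors are also the partners of PPARG, the master regulator of fat cell formation, and of the liver X receptors, which sense oxidised cholesterol. Retinoic acid is carried in the cell by CRABP1 and CRABP2 and broken down by enzymes of the CYP26 family. In cultured preadipocytes it is best known as a brake on the formation of fat cells when given early.

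A gene's level is the log2 of its background-subtracted signal minus the 75th percentile of its array, so a level of 0 equals that percentile, and a difference of 1 is 2-fold. Levels of different genes come from different probes and are not set against each other. Of 45220 spots an array, 64.8% to 74.0% of the probes were well above background and 0 were saturated. The lowest share was that of day 6 control array 1, which also had 110 outlier spots, against 4 to 12 on the other arrays. It lay at least 2-fold from the mean of day 6 control arrays 2 and 3, which were on another slide, at 572 genes (3.25%). No slide held both 9cRA and day 6 control arrays. Slide 3 held the 9cRA arrays and ATRA array 3, slide 2 held day 6 control arrays 2 and 3 with the other ATRA arrays, and slide 1 held day 6 control array 1 with day 0. A fit with slide as a block therefore links 9cRA to the day 6 control only through ATRA arrays. Its values are given where it ends the call of a gene described or moves a list's count by more than 1.5 times. The gene lists share members, so their counts are not separate results. CP, for example, counts in both the acute phase and the metal-handling list, and FABP4 in several fat cell lists.

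The 10 probes whose genes carry the comparison are shown first, because each value below is the brightness of a stretch of transcript of this kind. Each is a 60-base DNA oligonucleotide in the sense of the transcript, 5′ to 3′, as deposited in the array files, which place them on assembly UMD3.1. In order they lie at chr16:42002077-42002136 (plus strand), chr26:14463507-14463566 (plus), chr1:119908836-119908895 (plus), chr18:24106877-24106936 (minus), chr18:35542097-35542267 (minus), chr6:38121014-38121073 (minus), chr4:5356168-5356223 (minus), chr8:105974383-105975293 (minus), chr2:108075865-108075924 (plus) and chr22:57367209-57367268 (minus). The first 6 probes read higher with 9cRA and the next 3 lower, but other probes of DES rose (by 2.58 and 2.60). The last is a probe of PPARG, which read a difference of -0.00 (SE 0.10, adjusted p = 0.98). For DDC, TNC and PPARG the probe shown is not the brightest, whose values are given further on. The shown DDC probe differed by -6.06 (not above background on any 9cRA array) and the shown TNC probe by -3.82, close to -6.29 and -3.65 at the brightest.
DHRS3: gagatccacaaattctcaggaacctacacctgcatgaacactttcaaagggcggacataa
CYP26A1: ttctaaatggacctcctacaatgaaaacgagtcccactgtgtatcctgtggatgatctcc
CP: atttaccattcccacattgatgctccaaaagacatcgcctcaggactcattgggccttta
MT1A: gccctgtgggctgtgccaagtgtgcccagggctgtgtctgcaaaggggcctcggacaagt
PSMB10: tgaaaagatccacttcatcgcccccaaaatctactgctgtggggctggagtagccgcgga
SPP1: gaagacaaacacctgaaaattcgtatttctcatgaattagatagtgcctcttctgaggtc
DDC: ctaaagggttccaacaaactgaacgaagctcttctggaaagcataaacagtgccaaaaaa
TNC: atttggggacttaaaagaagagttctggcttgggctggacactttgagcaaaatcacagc
DES: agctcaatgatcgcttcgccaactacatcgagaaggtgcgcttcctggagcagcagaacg
PPARG: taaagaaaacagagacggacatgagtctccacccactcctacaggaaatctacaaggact

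Treatment with 9cRA moved a large part of the measured transcriptome. Of 17622 genes tested, 8209 (46.6%) were called at an adjusted p under 0.05, 4372 (24.8%) of them higher with 9cRA and 3837 (21.8%) lower. Most of these differences were small, with a median size of 0.47. At least 2-fold were 1396 genes (7.92%), of which 774 (4.39%) were higher and 622 (3.53%) lower, and at least 4-fold were 342 genes, of which 235 were higher and 107 lower. The arrays of the groups did not overlap for 9600 genes (54.5%). With slide as a block 4078 genes were called, 1818 higher and 2260 lower (44.6% higher), and 3759 of them were called in the same direction without it. With the arrays scaled to their median instead, 43.5% of the calls were higher, against 53.3%. The median difference of all genes was 0.06, and the median SE 0.09.

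**Figure D1:**
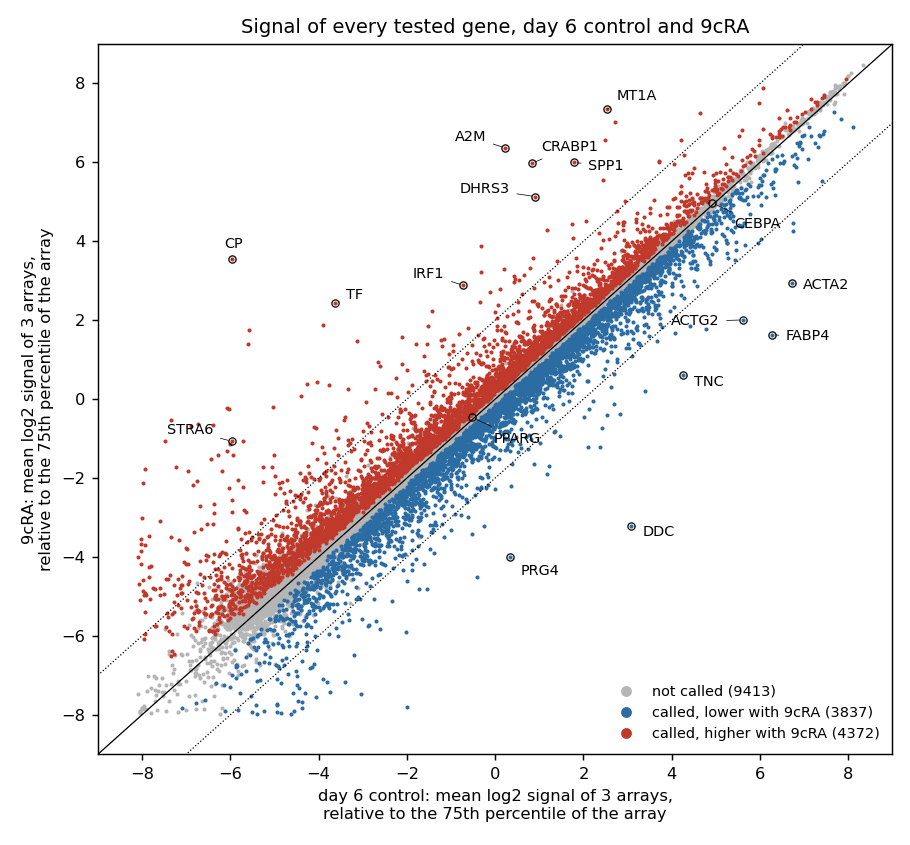
Mean log2 level over the 3 day 6 control arrays (horizontal axis) and the 3 9cRA arrays (vertical axis) for each of 17622 genes, relative to the 75th percentile of the array. Red points are the 4372 genes called higher with 9cRA, blue points the 3837 called lower, grey points the 9413 not called, and the dotted lines mark 4-fold. CP, A2M and TF lie far above the diagonal and DDC and FABP4 far below it.

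The machinery that handles retinoids moved in both directions. Of its 20 tested genes 8 rose and 8 fell, and the median difference was 0.09 (7 and 5 with slide as a block), a value that changed sign over the genes above background on all 12 arrays (-0.31). DHRS3, which reduces retinal back to retinol, had levels of 1.08, 0.77 and 0.87 on the day 6 control arrays and 5.04, 5.11 and 5.25 on the 9cRA arrays. The groups lay far apart, and the rise was 18.7-fold (4.22, SE 0.10, adjusted p = 7.5e-10). CRABP1, the cytosolic carrier of retinoic acid, stood at 1.10, 0.91 and 0.48 without and at 5.84, 6.01 and 6.06 with 9cRA, a 35.3-fold rise (5.14, SE 0.13, adjusted p = 1.6e-09). Its sister CRABP2, which passes the ligand to the receptors, went the other way, from -0.94, -1.13 and -1.28 to -2.31, -2.13 and -2.09 (2.08-fold lower, adjusted p = 2.1e-05). For both carriers every 9cRA array lay outside the range of the day 6 control arrays.

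STRA6, the membrane receptor that takes up retinol from its plasma carrier, was above background on 1 of 3 day 6 control arrays, with levels of -5.37, -6.09 and -6.43, and rose to -0.83, -1.22 and -1.16 (4.90, SE 0.23, adjusted p = 6.4e-08). At day 0 it had stood at -2.73, -2.78 and -2.44, between both day 6 groups. CYP26A1, the main retinoic acid hydroxylase, was not well above background on any day 6 control array (-6.36, -8.38 and -6.24) and reached -3.65, -3.95 and -3.69 with 9cRA, which is at least 4.02-fold higher (adjusted p = 0.00026). Such a bound divides the mean of the bright group by the signal that counts as background where the gene is dim. At day 0 CYP26A1 had been well above background, at -4.54, -4.55 and -4.21. Its difference between 9cRA and day 0 was not called (0.67, adjusted p = 0.22). CYP26B1, another such hydroxylase, was above background on 2 of 3 9cRA arrays (-4.73, -5.75 and -5.29) and on no day 6 control array (-7.32, -6.42 and -6.92), too dim for a fold. It was called (adjusted p = 0.017), but not with slide as a block (adjusted p = 0.34), without 9cRA array 1 (adjusted p = 0.062) and without day 6 control array 1 (adjusted p = 0.057). RDH10, which oxidises retinol on the way to retinoic acid, fell from 0.72, 0.47 and 0.58 to -0.78, -0.72 and -0.76 (2.53-fold lower, adjusted p = 2e-07). These arrays did not overlap either.

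Among 23 tested receptors and coregulators 13 rose and 4 fell, with a median of 0.24 (6 and 2 with slide as a block). RARG had the largest difference of these. Its levels were -0.04, 0.10 and 0.10 on the day 6 control arrays and 1.78, 1.80 and 1.70 on the 9cRA arrays, and it rose 3.27-fold (1.71, SE 0.06, adjusted p = 9e-09). RXRA differed by 0.78 (SE 0.22, adjusted p = 0.016), but by 0.09 with slide as a block (adjusted p = 0.85). Neither RARA (-0.01, 95% interval -0.37 to 0.35, adjusted p = 0.97) nor RXRB (0.06, interval -0.08 to 0.20, adjusted p = 0.43) was called. The RXRB interval is narrow, but it rests on array-to-array spread alone. RXRG was not above background on all 3 arrays of any group, and no probe carried the name RARB. The coactivator NCOA3 rose by 1.25 and the corepressor NCOR1 by 0.92, and NR4A2, an orphan receptor that can pair with retinoid X receptors, fell by 0.80.

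Of 27 tested genes known as retinoic acid targets, 18 were higher and 4 lower, with a median of 0.66. TGM2, the tissue transglutaminase, stood at -0.34, -0.27 and -0.28 without and at 1.05, 0.86 and 0.80 with 9cRA (2.30-fold higher, adjusted p = 9.2e-07). SMAD3, which carries TGF-beta signals to the nucleus, rose by 1.38 (adjusted p = 1.4e-06). Of 13 targets of the liver X receptors 7 rose and 1 fell, with a median of 0.43 (4 and 1 with slide as a block). LPCAT3, which remodels membrane phospholipids, rose by 0.99 (adjusted p = 1.8e-07), and SREBF1, the regulator of fatty acid synthesis, by 0.57 (adjusted p = 0.00016), while MYLIP, which degrades the LDL receptor, fell by 0.56. The cholesterol exporters ABCA1 (0.86, adjusted p = 0.00028) and ABCG1 (0.52, adjusted p = 0.019) were called higher too, but with slide as a block they differed by 0.59 (adjusted p = 0.11) and 0.02 (adjusted p = 0.96). The ABCG1 call was also lost without 9cRA array 2 or 3 (adjusted p = 0.050 and 0.070) and without day 6 control array 3 (adjusted p = 0.058).

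**Figure D2:**
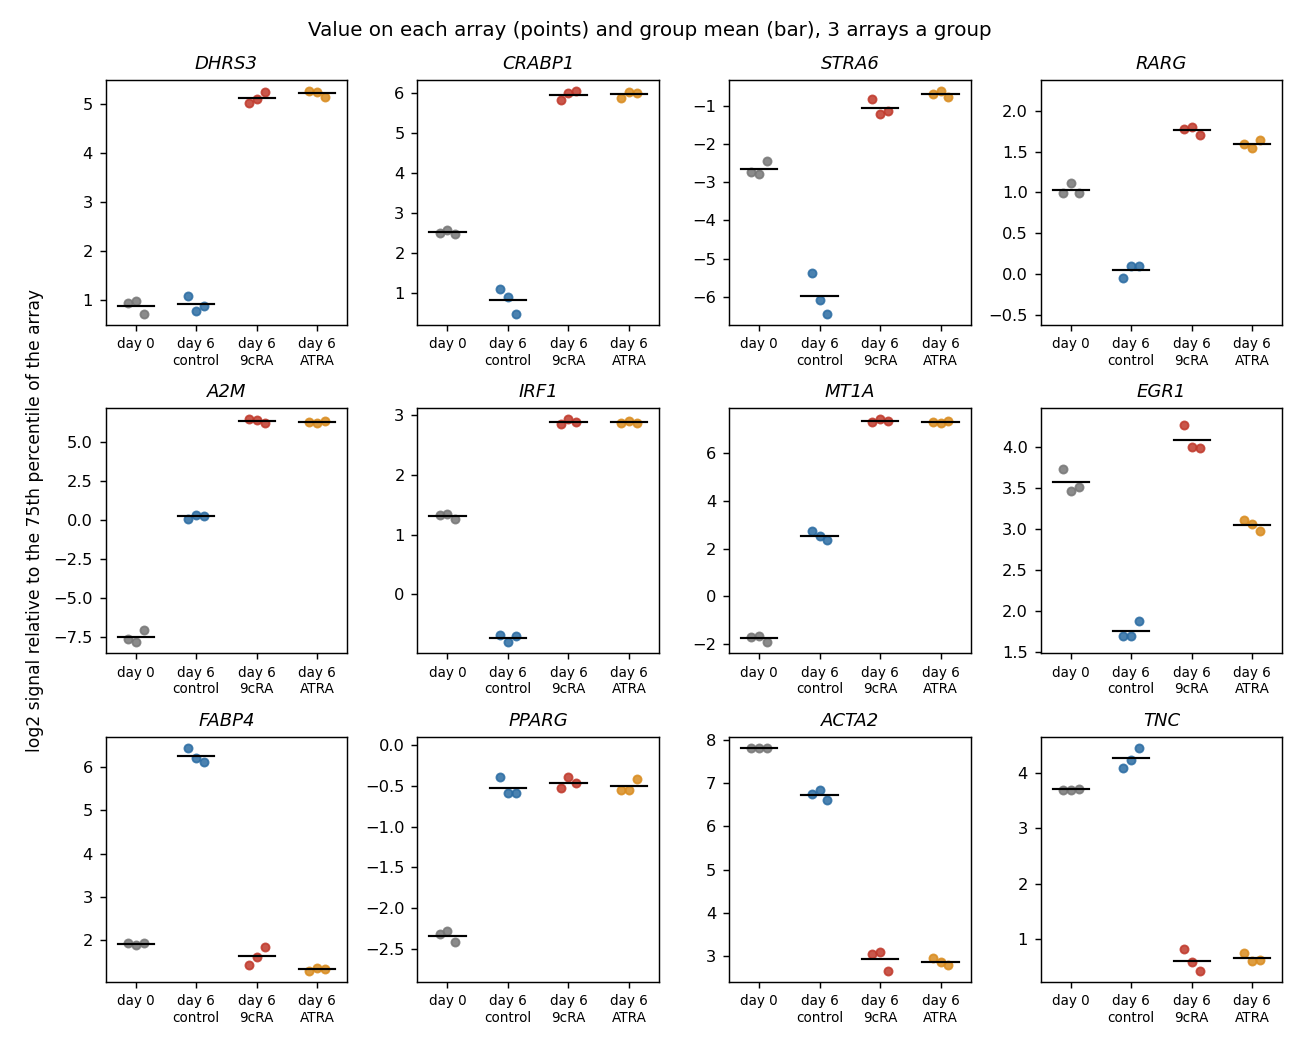
Log2 level on every array, relative to the 75th percentile of the array (vertical axes), of 12 genes in the day 0, day 6 control, 9cRA and ATRA groups. Points are single arrays and bars are means of 3 arrays, and in DHRS3, CRABP1, STRA6, RARG, A2M, IRF1 and MT1A the 9cRA arrays all lie above the day 6 control arrays, whereas in FABP4, ACTA2 and TNC they all lie below.

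HOX genes, which set position along the body axis and are classical retinoid-responsive genes in the embryo, were mostly higher. With their partners of the MEIS and PBX families, 23 of 31 tested rose and 1 fell, with a median of 0.50 (13 and 1 with slide as a block, and a median of 0.26 with normexp background correction). All 7 tested genes of the HOXA cluster rose (median 0.53), as did 6 of 7 of HOXB (median 0.71) and 5 of 7 of HOXC (median 0.52). Of 4 tested HOXD genes none rose and HOXD4 fell by 0.24. The difference between clusters was not tested. HOXB2 had the largest increase at a gene above background on all arrays, from -2.48, -2.73 and -2.51 to -0.50, -0.31 and -0.33 (4.57-fold, adjusted p = 1.6e-08), although its other probe read 0.34 (adjusted p = 0.16). HOXB3 rose by 1.64, HOXB8 by 0.88 and HOXA10 by 0.53.

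**Figure D3:**
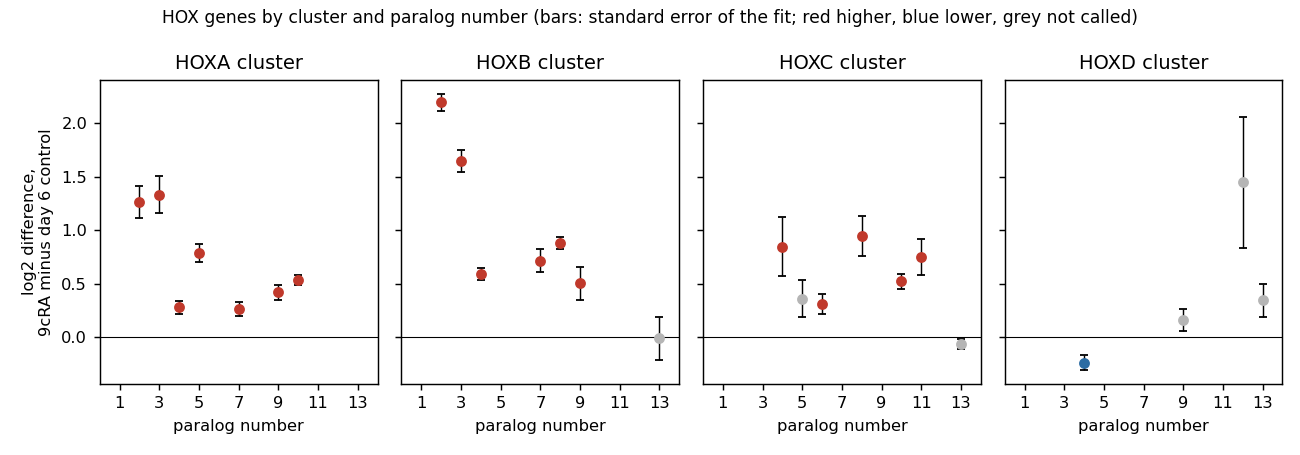
Log2 difference, 9cRA minus day 6 control, of the 25 tested HOX genes by paralog number (horizontal axis) in each of the 4 clusters. Bars are standard errors, red points are genes called higher at an adjusted p under 0.05, blue lower and grey not called. HOXB2 (2.19) and HOXB3 (1.64) lie highest, HOXD12 (1.44, above background on 1 of 3 day 6 control arrays) was not called, and HOXD4 lies below 0.

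The fat cell programme did not move as a block. Of 25 tested adipogenic transcription factors 10 rose and 9 fell, with a median of 0.06 (3 and 7 with slide as a block). PPARG, which the medium had raised from -2.32, -2.28 and -2.41 at day 0, stood at -0.39, -0.59 and -0.59 in the day 6 control and at -0.53, -0.39 and -0.46 with 9cRA. These arrays overlapped, and the difference was 0.06 (95% interval -0.10 to 0.22, adjusted p = 0.52). CEBPA, which works beside it, had levels of 4.88, 5.05 and 4.82 without and 4.84, 5.03 and 5.05 with 9cRA (0.06, interval -0.12 to 0.24, adjusted p = 0.57). The early factors CEBPB (0.43, adjusted p = 0.0056) and CEBPD (0.15, adjusted p = 0.013) were called higher, but with slide as a block their differences were 0.28 (adjusted p = 0.18) and 0.19 (adjusted p = 0.14). ZNF423, a zinc finger protein that marks preadipocytes, rose by 1.95 and the anti-adipogenic GATA2 by 1.06, and KLF4 fell by 1.23. PPARGC1A, the coactivator of mitochondrial biogenesis, fell by 1.22. In bulk RNA, that fewer cells of a type were present and that each held less RNA cannot be told apart in any of these results.

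FABP4, the fatty acid carrier that marks differentiating fat cells, showed the largest decrease of the adipocyte genes. Its levels were 6.45, 6.22 and 6.12 on the day 6 control arrays and 1.43, 1.61 and 1.84 on the 9cRA arrays, a fall of 24.9-fold (-4.64, SE 0.10, adjusted p = 6.5e-10). At day 0 it had stood at 1.92, 1.89 and 1.95, so the 9cRA arrays lay slightly below the cells before adipogenic medium (-0.29, adjusted p = 0.028). Other genes of fat storage that the medium had raised did not follow it. LPL, which frees fatty acids from lipoproteins, differed by 0.14 (interval -0.06 to 0.34, adjusted p = 0.23) and the fatty acid receptor CD36 by -0.21 (interval -0.67 to 0.25, adjusted p = 0.42). PLIN2, a coat protein of lipid droplets, stood at 3.97, 3.99 and 3.88 without and 4.18, 4.13 and 4.24 with 9cRA (0.24, adjusted p = 0.0047, but 0.11 and 0.41 with slide as a block). ADIPOQ, the adipokine of mature fat cells, was not above background on all 3 arrays of any group.

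Of 33 tested genes of triglyceride storage and release 11 rose and 8 fell, with a median of 0.16 (2 and 5 with slide as a block). GPAT3, which starts triglyceride synthesis, rose by 1.08 (adjusted p = 6e-07). CAV1, the coat protein of caveolae, fell from 6.03, 5.96 and 6.06 to 4.02, 4.11 and 4.07 (3.87-fold, adjusted p = 2.9e-09), and SLC27A1, a fatty acid transporter, fell by 0.64. CIDEC, a droplet fusion protein, differed by -0.41 (adjusted p = 0.0099, but 0.18 with slide as a block). Of 30 genes of PPAR action and fatty acid oxidation 10 rose and 11 fell, with a median of 0.06 (4 and 4 with slide as a block). ANGPTL4, an inhibitor of LPL, stood at 2.97, 2.93 and 2.79 without and at 4.61, 4.44 and 4.41 with 9cRA (3.02-fold higher, adjusted p = 7.8e-08). The oxidation enzymes ACSL1 (1.02) and CPT2 (0.89) rose as well, and PDK4, which spares glucose, differed by 0.90 (adjusted p = 0.085).

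Of the genes tested for fatty acid and for cholesterol synthesis 65.2% and 50.0% were called, against 46.6% of all genes. Of 23 tested genes of fatty acid synthesis 10 rose and 5 fell, with a median of 0.00, and among them SCD, the stearoyl-CoA desaturase, rose by 0.72, ACSL4 by 1.04 and the acetate-activating enzyme ACSS1 by 1.06. The elongase ELOVL7 fell by 1.36. Of 24 cholesterol genes, for synthesis and uptake, 3 rose and 9 fell, with a median of -0.12 (1 and 8 with slide as a block). The falling enzymes included ACAT2 (-0.81), HMGCS1 (-0.57), NSDHL (-0.57) and EBP (-0.49). The difference between these pathways was not tested.

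**Figure D4:**
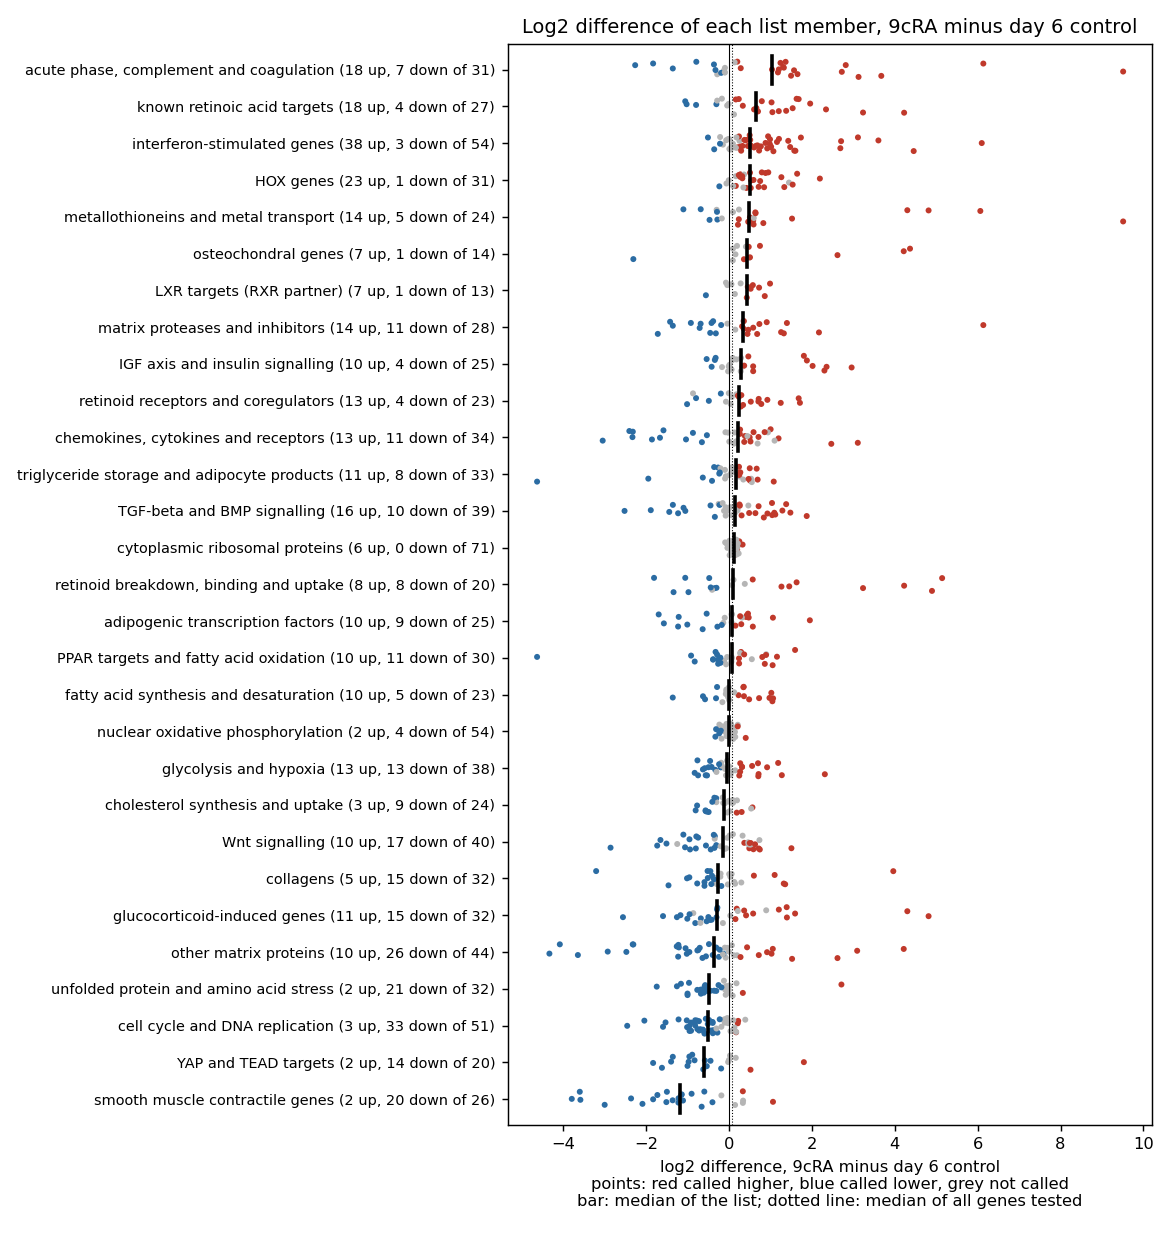
Log2 difference, 9cRA minus day 6 control, of every tested member of 29 gene lists. Each point is a gene and the bars are list medians, against a median of 0.06 over all 17622 genes. Smooth muscle genes have the lowest median (-1.19) and acute phase genes the highest (1.04).

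Contractile smooth muscle genes fell together. Of 26 tested genes 20 fell and 2 rose, and the median was -1.19 (19 and 1 with slide as a block). ACTA2, smooth muscle actin, had levels of 6.76, 6.85 and 6.60 on the day 6 control arrays and 3.06, 3.09 and 2.66 on the 9cRA arrays (13.9-fold lower, adjusted p = 3e-09). At day 0 it had been at 7.81, 7.81 and 7.82, so the 9cRA arrays were the lower of all 3 states. ACTG2, the enteric smooth muscle actin, fell from 5.45, 5.84 and 5.54 to 2.03, 2.05 and 1.94 (12.2-fold, adjusted p = 9e-10). TAGLN, an actin-binding protein, fell by 3.00, LMCD1 by 3.59 and the calponin CNN1 by 1.5. DES, the muscle intermediate filament protein, gave opposite answers at its probes: the probe shown above, its brightest, fell by 1.14 (adjusted p = 1.2e-07), whereas probes at chr2:108082024-108082083 and chr2:108082481-108083025 rose by 2.58 and 2.60.

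The 4 tested markers of smooth muscle cells and pericytes all fell (median -2.43), and their summed level, the log2 of the added signals, went from 7.04 to 7.31 on the day 6 control arrays to 3.75 to 4.02 on the 9cRA arrays. Of the defining markers in that list, MYH11 and RGS5 were not above background on all arrays of any group. The part of such cells in the contractile result was not tested. Target genes of YAP, which reads tension in the actin skeleton, moved likewise: 14 of 20 fell and 2 rose, with a median of -0.60 (12 and 1 with slide as a block). Among them ANKRD1 fell by 1.62.

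The extracellular matrix was remodelled in both directions. Of 32 tested collagen genes and collagen enzymes 15 fell and 5 rose (median -0.26), and of 44 other matrix genes 26 fell and 10 rose (median -0.35). TNC, the tenascin of healing and developing connective tissue, stood at 4.10, 4.24 and 4.45 without and at 0.82, 0.59 and 0.43 with 9cRA (12.6-fold lower, adjusted p = 3.4e-09). LUM, a proteoglycan of collagen fibrils, fell by 2.48, P4HA3, a collagen prolyl hydroxylase subunit, by 3.21, COL16A1 by 1.02 and the cartilage proteoglycan ACAN by 2.31. ACAN fell by 1.48 when its probes were averaged. PRG4, the lubricin of joints, went from 0.15, 0.02 and 0.81 to -3.59, -4.19 and -4.26 (20.2-fold lower, adjusted p = 1.6e-05). COL18A1, the source of endostatin, rose by 1.35, and FNDC1 fell by 4.09 at its brighter probe and differed by -0.04 at the other.

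Some mineral and calcification genes went the other way, and SPP1 among them also counts with the other matrix genes above. SPP1, osteopontin, had levels of 1.79, 1.84 and 1.71 on the day 6 control arrays and 5.88, 6.08 and 6.03 on the 9cRA arrays, a rise of 18.6-fold (adjusted p = 2.7e-10). MGP, an inhibitor of calcification, went from 4.75, 4.65 and 4.52 to 7.19, 7.28 and 7.29 (6.13-fold higher, adjusted p = 2e-09). ALPL, the alkaline phosphatase of bone, was not above background in the day 6 control and was at least 4.31-fold higher (adjusted p = 7e-06). Of 14 tested osteochondral genes 7 rose and 1 fell, with a median of 0.44 (4 and 1 with slide as a block). Among 28 proteases and inhibitors 14 rose and 11 fell (8 and 6 with slide as a block). PLAU, urokinase, rose by 1.32, while ADAMTS5, which cuts aggrecan, fell by 1.43.

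Secreted proteins of the acute phase and metal transport were among the largest increases. CP, the copper-carrying ferroxidase ceruloplasmin, was above background on 2 of 3 day 6 control arrays, at -5.92, -6.06 and -5.92, and reached 3.51, 3.47 and 3.65 with 9cRA, a difference of 9.51 (SE 0.15, adjusted p = 8.2e-11). A2M, a broad inhibitor of proteases, went from 0.07, 0.33 and 0.28 to 6.46, 6.42 and 6.22 (70.3-fold, adjusted p = 2.3e-09). TF, transferrin, went from -3.29, -3.57 and -4.0 to 2.51, 2.52 and 2.31 (66.9-fold, adjusted p = 1.5e-08). For all 3 the gap between groups was many times the spread within either. A2M and TF were measured on all arrays of both groups. Of 31 tested acute phase and complement genes 18 rose and 7 fell, with a median of 1.04, which was 0.42 with slide as a block and 0.02 over the members above background on all 12 arrays. PTX3, a pattern recognition protein, was an exception and fell from 6.81, 6.72 and 6.70 to 4.49, 4.53 and 4.41 (4.82-fold, adjusted p = 4.7e-09), and F3, tissue factor, fell by 1.83.

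Metallothioneins, which bind zinc and copper, rose steeply. MT1A had levels of 2.74, 2.53 and 2.36 without and 7.32, 7.42 and 7.34 with 9cRA (28.1-fold, adjusted p = 3.2e-10). MT2A rose 19.7-fold, from 2.74, 2.81 and 2.63 to 7.02, 7.05 and 7.0, although 1 of its probes differed by 0.18. The sequences of metallothioneins are alike, and the probes may not tell all members apart. Of 24 tested metal-handling genes 14 rose and 5 fell, with a median of 0.48, which was 0.16 with slide as a block.

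Interferon-linked genes were higher as a group than in the day 6 control. Of 54 tested genes 38 rose and 3 fell, with a median of 0.51 (29 and 1 with slide as a block). In the day 6 control itself 39 of them lay below day 0 and 4 above (median -0.86). With 9cRA 24 lay below day 0 and 18 above (median -0.12), so the list as a whole was not above the starting cells. IRF1, a transcription factor of interferon responses, had levels of -0.67, -0.80 and -0.69 on the day 6 control arrays and 2.85, 2.92 and 2.87 on the 9cRA arrays (12.2-fold higher, adjusted p = 7.9e-11). At day 0 it had been at 1.33, 1.34 and 1.25, between both. PSMB10, a subunit of the immunoproteasome, went from -3.82, -4.08 and -4.19 to 0.29, 0.46 and 0.52 (21.9-fold, adjusted p = 4.5e-10). IFI27 rose 8.63-fold and RTP4 by 2.70. IRF8, better known from blood cells, was not above background on any day 6 control array and was at least 35.3-fold higher with 9cRA (adjusted p = 2.1e-08).

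Immune cell markers were mostly called higher as well. Of 5 tested, 4 were called higher (median 0.74), but 2 with slide as a block. The summed level of the 5 went from 2.41 to 2.81 on the day 6 control arrays to 3.13 to 3.15 on the 9cRA arrays. CD14 had the largest difference, from -1.65, -1.66 and -1.56 to 0.68, 0.79 and 0.65 (2.33, adjusted p = 1.8e-08, with its 3 probes between 0.73 and 2.33). PTPRC differed by 0.78 (0.52 without day 6 control array 1), CSF1R by 0.74 and CD68 by 0.28, and the last 2 were not called with slide as a block (adjusted p = 0.094 and 0.71). The CD68 call was also lost without 1 array in 5 of 6 cases (adjusted p between 0.065 and 0.091). With its probes averaged, CD68 differed by -0.11 (adjusted p = 0.67). CD3E and AIF1 were not above background on all arrays of any group. The part of immune cells in the interferon and acute phase results was not tested. Of 4 tested endothelial markers only VWF was called (1.96), PECAM1 and CDH5 were not above background on all arrays of any group, and the summed level went from -2.46 to -1.95 up to -1.28 to -1.11.

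Chemokine and cytokine genes split, with 13 of 34 higher and 11 lower (7 and 11 with slide as a block). CCL5 fell from 1.19, 1.29 and 1.01 to -1.77, -1.78 and -2.11 (8.29-fold, adjusted p = 1e-08). CCL2, which draws monocytes, fell by 1.67 and CSF1, the macrophage growth factor, by 1.59. CXCL12, a chemokine of stromal cells, rose from 2.01, 1.95 and 2.19 to 4.41, 4.60 and 4.54 (5.53-fold, adjusted p = 3.9e-08). In each of these the groups did not overlap.

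DDC, the decarboxylase that makes dopamine and serotonin, showed the largest fitted decrease of the 17622 genes tested. It stood at 3.09, 3.19 and 2.97 in the day 6 control and at -3.07, -3.39 and -3.15 with 9cRA, a fall of 78.3-fold (-6.29, SE 0.09, adjusted p = 8.2e-11). At day 0 its levels had been 0.35, 0.25 and 0.41, so the medium had raised it and the 9cRA arrays lay below the starting cells. Further large decreases were at C1QTNF3, an adipokine-like secreted protein (-3.31), the histamine receptor HRH1 (-3.16) and RAMP3, an escort of the calcitonin receptor family (-3.09). Large increases outside the lists were at the monocarboxylate transporter SLC16A7 (4.65), MRAP, the escort of the ACTH receptor (4.48), PLEKHB1 (4.21) and CLSTN3, which rose by 5.78 at its brighter probe and differed by 0.37 at the other. DTX1, a regulator of Notch signalling chosen after its values were seen, was above background on 1 of 3 day 6 control arrays (-3.81, -6.22 and -6.71) and stood at 1.88, 1.91 and 1.5 with 9cRA (7.34, SE 0.59, adjusted p = 3.7e-06).

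Genes above background on all arrays of 1 group and on no array of the other have only a bound, which was above 1 for 103 genes brighter and 61 dimmer with 9cRA, and 98 and 58 of these were called. Among genes with a symbol, the largest bounds after IRF8 were at CRTAC1, a cartilage matrix protein (at least 34.6-fold higher), TGM3, a transglutaminase of skin (at least 34.0-fold higher), and INHCA (at least 15.9-fold higher). In the other direction CNGA3, an ion channel subunit, was at least 12.5-fold lower, SERPINA11 at least 6.21-fold lower, AQP11 at least 4.43-fold lower and FIGLA at least 4.33-fold lower. Each passed the test (adjusted p between 3.2e-10 and 0.0002). COL13A1, a transmembrane collagen, was at least 10.7-fold higher (adjusted p = 4.1e-07), with a spot of 1 day 6 control array left out as an outlier.

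Cell cycle genes were lower. Of 51 tested 33 fell and 3 rose, with a median of -0.50 (21 and 0 with slide as a block, median -0.61). RRM2, the subunit of ribonucleotide reductase that follows DNA synthesis, went from -2.05, -1.82 and -1.78 to -4.36, -4.22 and -4.44 (5.50-fold lower, adjusted p = 4.4e-08). Cyclin D1 (CCND1) fell by 1.02, PRC1, which bundles the spindle midzone, by 1.01, and the replication helicase subunit MCM5 by 0.77. Genes of amino acid synthesis and the unfolded protein response were lower as well: 21 of 32 fell and 2 rose, with a median of -0.48 (14 and 2 with slide as a block). The serine synthesis enzymes PSAT1 and PHGDH fell by 1.75 and 1.16, and the asparagine synthetase ASNS by 0.97. HERPUD1, which serves in the degradation of misfolded proteins, rose against this trend, from 1.80, 1.70 and 1.72 to 4.44, 4.48 and 4.42 (6.55-fold, adjusted p = 2.7e-10).

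Glucocorticoid-responsive genes, which dexamethasone in the medium can drive, were split with 15 of 32 lower and 11 higher (12 and 6 with slide as a block). TSC22D3, the leucine zipper induced by glucocorticoids, had levels of 0.95, 1.09 and 0.99 at day 0, 4.46, 4.44 and 4.36 in the day 6 control and 1.90, 1.79 and 1.88 with 9cRA. The 9cRA arrays lay between the other states, 5.91-fold below the day 6 control (adjusted p = 1.1e-09). Of 38 genes of glycolysis and hypoxia 13 rose and 13 fell (10 and 7 with slide as a block). EPAS1, a hypoxia-inducible factor, rose 4.96-fold (2.31, adjusted p = 2.9e-09), ADM by 1.27 and ERO1A by 1.18, and BNIP3, a mitophagy receptor, fell by 0.75.

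In growth factor pathways, as in the lists above, counts are to be read against the 24.8% of all genes that rose and the 21.8% that fell. Of 25 tested genes of insulin-like growth factor signalling 10 rose and 4 fell, with a median of 0.28 (6 and 3 with slide as a block, and a median of 0.17 without 9cRA array 1). The binding proteins IGFBP6, IGFBP5 and IGFBP3 rose by 2.35, 2.30 and 1.80, and IGF2 rose by 1.88 at its brightest probe while its 12 probes ranged from -0.23 to 4.07. Of 40 Wnt pathway genes 17 fell and 10 rose (14 and 6 with slide as a block): the receptors FZD1 and FZD8 fell by 1.74 and 1.66, FZD4 rose by 1.5, and the antagonist-related DKK3 fell by 1.06. Of 39 genes of TGF-beta and BMP signalling 16 rose and 10 fell. The ligand TGFB3 rose by 1.29, whereas BMP4 fell by 1.45, the co-receptor TGFBR3 by 1.89 and LTBP1, which stores TGF-beta in the matrix, by 1.23.

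Housekeeping groups moved little. Of 54 nuclear genes of oxidative phosphorylation 2 rose and 4 fell (median -0.01), and of 71 cytoplasmic ribosomal proteins 6 rose and 0 fell (median 0.12, and 0.03 without day 6 control array 3), both under the share of calls among all genes (46.6%). With slide as a block 0 of either list were called. Named members had differences between -0.33 (NDUFS1) and 0.40 (ATP5PB).

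The identity of the cultures was read from marker lists. Of 12 tested preadipocyte and stromal markers 6 rose and 3 fell (median 0.24), and their summed level went from 9.25 to 9.37 down to 8.77 to 8.83 with 9cRA. THY1, a surface marker of stromal cells, fell by 1.71, and CD34, which was not above background in the day 6 control, was at least 2.33-fold higher. Of 7 tested adipocyte markers FABP4 and CIDEC were called, both lower, and 5 of 7 had a difference above 0 (median 0.06). Their summed level went from 6.18 to 6.49 down to 2.47 to 2.67, close to that of FABP4 alone in the day 6 control. ADIPOQ and LEP, adipokines of mature fat cells, were not above background on all arrays of any group, and neither was UCP1, which marks brown fat. Of 6 tested skeletal muscle markers 2 fell, ACTA1 by 2.40 and DES at its brightest probe, while the other DES probes rose. The remaining 4 were not called, among them MYOD1 (0.32) and MYH3 (0.37). The list median was 0.16, but -0.39 with slide as a block. Each of the 6 was detected on every day 6 control and 9cRA array. Their summed level went from 5.49 to 5.63 down to 4.43 to 4.54 with 9cRA. MYF5 and PAX7 were not above background on all arrays of any group. Of 3 tested epithelial markers 0 were called.

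At the same dose and day, few genes were called between 9cRA and ATRA. These compounds are geometric isomers: a double bond that is trans in ATRA is cis in 9cRA. This is the only pair of compounds in the series, and it was compared directly over all 17622 genes. Of these, 21 (0.119%) were called, 10 (0.0567%) higher and 11 (0.0624%) lower with 9cRA, and 1850 had an unadjusted p under 0.05. For 94.6% of genes the 95% interval of the difference, from the fit without slide and over array-to-array spread alone, lay within 2-fold. The same held for 1202 (86.1%) of the 1396 genes called at least 2-fold apart between 9cRA and the day 6 control. Of those 1396 genes, 4 were called between the isomers. The count of 21 is fragile: it fell to 0 without 9cRA array 2 and to 0 without ATRA array 3, to 1 without ATRA array 2 and to 10 without ATRA array 1, and it was 33 with slide as a block, of which 4 were among the 21.

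None of the retinoid-handling genes named above was called between the isomers. Their intervals come from the fit without slide and rest on array-to-array spread alone, so they do not bound the gap between separate cultures. DHRS3 differed by -0.10 (interval -0.32 to 0.12), CRABP1 by -0.00 (-0.30 to 0.30) and STRA6 by -0.37 (-0.88 to 0.13). CYP26A1 was measured less closely (-0.16, interval -1.20 to 0.87). RARG differed by 0.17 (0.04 to 0.30, adjusted p = 0.35) and FABP4 by 0.30 (0.07 to 0.53, adjusted p = 0.35), neither of them called. PPARG (0.04, interval -0.12 to 0.20) and A2M (0.07, interval -0.31 to 0.45) were also not called.

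The 14 called genes with a symbol included early response genes and genes of lipid synthesis. With slide as a block all 21 genes, which the same arrays had chosen, kept their sign. However, 17 were no longer called (adjusted p between 0.058 and 0.19), and of those with a symbol EGR1 and SCD alone still were. EGR1, an early response transcription factor, had levels of 1.69, 1.70 and 1.87 in the day 6 control, 3.11, 3.06 and 2.98 with ATRA and 4.27, 4.01 and 4.0 with 9cRA. All 3 groups were apart, and 9cRA was 2.06-fold above ATRA (1.04, interval 0.83 to 1.26, adjusted p = 0.013, and 0.030 with slide as a block). IER2, another early response gene, was 0.46 above ATRA (adjusted p = 0.042). SCD stood at 4.52, 4.54 and 4.40 with ATRA and at 5.09, 4.94 and 4.96 with 9cRA (0.51, interval 0.39 to 0.63, adjusted p = 0.013, and 0.020 with slide as a block). Of the sterol and lipid genes, HMGCS1 was higher by 0.43 (adjusted p = 0.039), INSIG1, a brake on sterol synthesis, by 0.42 (adjusted p = 0.038), the desaturase FADS2 by 0.41 (adjusted p = 0.039) and NSDHL by 0.34 (adjusted p = 0.044). INSIG1 and FADS2 lie outside the naming rule and were chosen after their values were seen. Of the 24 tested cholesterol genes 3 were called, but 23 had a difference above 0 between 9cRA and ATRA (median 0.30). Over all 17622 genes 9736 did (median 0.01). Against the day 6 control, 17 of the 24 were lower and 3 higher with ATRA (median -0.42). With 9cRA 9 were lower and 3 higher (median -0.12). By median the cholesterol list was thus above ATRA but not above the day 6 control. This list, too, was singled out after its values were seen.

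The remaining called genes with a symbol include PGR, the progesterone receptor, which was above background only on the 9cRA arrays (-5.19, -5.39 and -5.04) and at least 1.54-fold above ATRA (adjusted p = 0.042), and FCGR2B, which was not above background in any day 6 group. KRTCAP3 (-0.70), H2AC25 (-0.72), the guanylate cyclase subunit GUCY1B1 (-0.30), and the splicing factors LUC7L3 (-0.45) and RNPC3 (-0.55) were lower with 9cRA than with ATRA. PGR, FCGR2B, LUC7L3 and RNPC3 were chosen after their values were seen. On slide 3, which held all 9cRA arrays and 1 ATRA array, all 21 genes differed in the same direction, by at least 0.25. That value has no test. The 21 genes were chosen with these same arrays, and the differences nearly equal those with slide as a block. The shared direction is therefore no separate check.

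**Figure D5:**
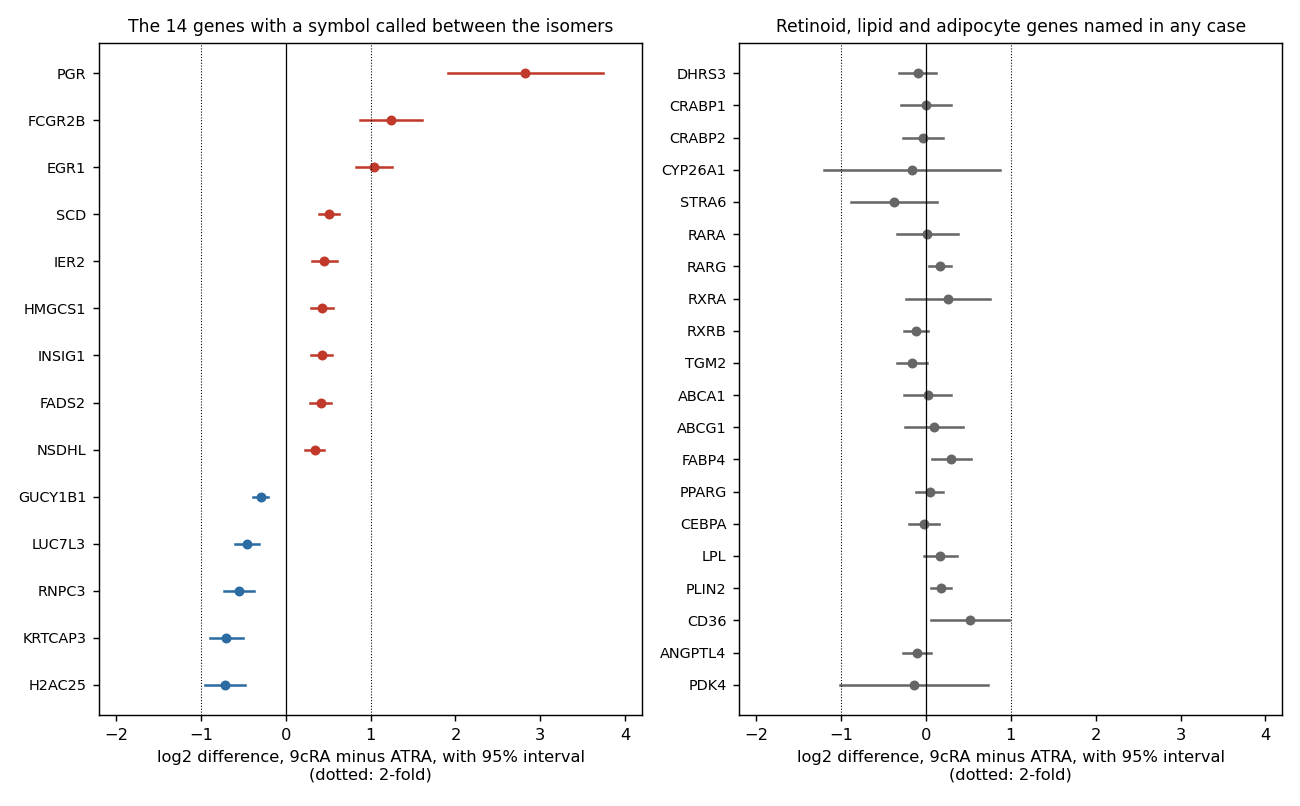
Log2 difference, 9cRA minus ATRA at the same dose and day, with 95% intervals, for the 14 genes with a symbol that were called and for 20 genes of retinoid handling, lipid metabolism and adipocytes. Dotted lines mark 2-fold. EGR1 lies at 1.04 and SCD at 0.51, whereas DHRS3, CRABP1 and PPARG lie near 0.

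Against day 0, which adds the effect of the medium and of 6 days, 12575 genes (71.4%) were called with 9cRA (7051 with slide as a block). PPARG was 1.87 above day 0 in the 9cRA cultures, LPL 2.63 and PLIN2 2.49, each called (adjusted p = 4.3e-09, 1.9e-09 and 9.7e-11). FASN, the fatty acid synthase, was 0.97 above the day 6 control but differed from day 0 by -0.79 (adjusted p = 1e-05 and 2e-05). It was chosen after its values were seen. Against the same cells, FABP4, CRABP2 (-0.17, adjusted p = 0.17) and CEBPA (0.19, adjusted p = 0.058) lay within 0.3 of day 0.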

How the data were processed

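The authors deposited 12 scanner files of spot intensity on a linear scale and a value table on the log2 scale, with a column for each group. Per the file headers, Feature Extraction 10.7.3.1 had subtracted background, and no normalization between arrays was applied. RNA was labelled with Cy3 from an oligo-dT primer, per the labels' protocols. Control spots and spots marked as outliers were left out, which removed a value from 31 tested genes. Levels are log2 processed signals minus the array's own 75th percentile. A gene was represented by its probe with the highest mean, and was tested where some group had that probe well above background on all of its 3 arrays. Group means of all 4 groups were fitted over 12 arrays by two-sided moderated tests (lmFit and eBayes of limma 3.58.1, run in R 4.3.3), with Benjamini-Hochberg adjustment over 17622 genes and calls at an adjusted p under 0.05. The number of arrays limits the precision.

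Genes were named through RefSeq accessions (28557 of 43653 probes), current symbols (5115) or older symbols (138) of the RefSeq table for ARS-UCD2.0, which gave names but no positions; 9843 probes kept the file's name. A symbol here is a name matched in that table that is not a LOC number. Named genes are the 12 largest increases and 12 largest decreases measured on all arrays of both groups without overlap, the 4 largest bounds each way, up to 4 members of each list with the smallest adjusted p, the 6 largest isomer differences each way among genes called in both contrasts, and a set of retinoid and adipocyte genes. The comparison, the 36 lists and this rule were chosen with earlier results of these data known. Some genes the rule takes are not reported here. The fit was also run on simulated data with independent noise on each array and no slide effect. That run cannot speak to slide or to arrays that share a culture. Alternatives were other background correction, scaling, filters, probe averaging, slide as a block, a fit of 2 groups, a test against 1.5-fold and leaving out arrays. The deposited log2 table, whose differences correlated with the computed ones at 0.985 over 30234 probes (across probes, not replicates), was a further one. Its column medians were 0.01 (day 0), -0.01 (day 6 control), 0.01 (ATRA) and 0.02 (9cRA); its scale, centring and direction are not stated in the sources used here and were read from that comparison.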

Additional observations from a re-analysis of the deposited data

How the results depend on the processing

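For 9cRA against the day 6 control, 8209 genes were called; slide as a block gave 4078, the test against 1.5-fold 1411, and leaving out 1 array 6688 to 8111. Against ATRA 21 were called; normexp background correction gave 34, quantile scaling 32, no filter 4, the filter on all 12 arrays 40, slide as a fixed block 33, slide as a random block 5, a fit of the 2 groups alone 2, the test against 1.5-fold 0 (13 at an unadjusted p under 0.05), and leaving out 1 array 0 to 22 by limma (with 1101 genes at an unadjusted p under 0.05 without 9cRA array 2 and 1790 without ATRA array 3). Against day 0, 12575 were called, 7051 with slide as a block, 4324 against 1.5-fold and 11704 to 12054 without 1 array. Of 163 named genes, 144 kept the side of the threshold with slide as a block, and their direction where called. Another 18 lost the call and 1 reversed, and with median scaling 158 were kept in this sense. Genes called in neither fit count as kept even where their sign changed. With slide as a block this was so for PPARG (0.06 to -0.01) and the endothelial marker KDR (0.68 to -0.09). Over all settings the list medians of HOX genes ranged from 0.26 to 0.51, of acute phase genes from 0.02 to 1.15 and of cell cycle genes from -0.62 to -0.24. Those of retinoid handling, PPAR action, adipogenic factors, triglyceride storage, fatty acid synthesis, TGF-beta, Wnt, glycolysis, oxidative phosphorylation, and adipocyte and muscle markers took both signs. Among named genes called in either fit, averaging the probes of a gene reversed CIDEA (-0.43, adjusted p = 0.00029), DES (1.34, adjusted p = 3.3e-08), IMPA2 (-0.065, adjusted p = 0.55) and CD68 (-0.11, adjusted p = 0.67). By the same count, slide as a block reversed CD68 (-0.077, adjusted p = 0.71). Normexp with an offset of 50, which by construction pulls dim signals together, gave 1.08 for CYP26A1, 2.99 for STRA6, 1.38 for ALPL and 3.60 for IRF8. The cause of the other shifts was not tested. The array files are numbered 1 to 3 in each group, but the labels do not say that a number marks a shared culture. Deviations of same-numbered 9cRA and day 6 control arrays correlated at -0.11, 0.02 and -0.20 across genes, which shows no pairing by number. These groups share no slide, so the values cannot decide whether a number marks a shared culture. A fit with array number as a replicate block, added after seeing the data, gave 7592 calls against the day 6 control, 2 against ATRA and 12220 against day 0. Signal over background limits the dim genes, and those above background on no array of a group have only a bound there.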

Other observations

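Transcripts of the mitochondrial genome, which encode subunits of the respiratory chain, were read by 36 probes on the forward strand and 16 on the reverse strand. Of the forward probes 30 were called higher with 9cRA than in the day 6 control and 0 lower, with a median difference of 0.56 and a range of 0.10 to 0.95. Of the reverse probes 3 were called higher and 0 lower, with a median of 0.22 and a range of -0.39 to 1.39. Among all genes tested 24.8% were called higher and 21.8% lower, which are shares of genes and not of probes. Several probes can read the same transcript, so these counts are not counts of separate genes. The highest, AB098840, was also called between the isomers (0.89 above ATRA, adjusted p = 0.013, and 0.058 with slide as a block). Between isomers the forward probes had a median of -0.39, 9cRA minus ATRA, and the reverse probes -0.04. The nuclear genes of oxidative phosphorylation had a median of -0.01 against the day 6 control. These values were chosen after they were seen.

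Several genes with more than 1 tested probe gave probe-dependent answers. Of 7828 such genes, 83 had probes called in opposite directions for 9cRA against the day 6 control, DES among them.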
